A study of Mus musculus with 71 samples.

Results

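MicroRNAs were counted in the right cerebellum of male mice that carried 2 hits, the DYT1KI genotype and a crush of the right sciatic nerve, and set against mice with neither. DYT1KI is a knock-in mouse model of DYT-TOR1A dystonia, in which torsinA is mutated, a chaperone-like ATPase that works between the membranes around the nucleus and in the endoplasmic reticulum. The labels give no zygosity. The members were chosen by label alone: the 6 cerebellum libraries of DYT1KI mice with nerve crush and the 6 of naive wild-type (WT) mice, 12 of the 23 cerebellum libraries and of 71 libraries in all. The nerve was crushed for 1 minute under isoflurane in mice 12 weeks old, and all groups, the naive one included, are labelled 12 weeks post injury. The other 11 cerebellum libraries carried a single hit, DYT1KI naive (6) or WT crush (5), and entered the fit for the estimate of the spread. Each library stood for another numbered mouse. Cortex and striatum of the same numbered mice were sequenced too and are used below for comparison only.

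A microRNA (miRNA) hairpin is cut from a longer transcript and then into 2 arms, 5p and 3p, of which usually one is kept in the Argonaute complex. The kept strand finds messenger RNAs mainly through its seed, bases 2 to 8, and lowers their translation and stability. In the cerebellum miRNAs shape the maturation and survival of Purkinje and granule neurons, and the cerebellum is one of the regions linked to dystonia. Nerve crush interrupts sensory and motor axons outside the brain, far from the cerebellum.

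With both hits, 23 of 555 miRNAs tested (4.14%) differed from naive WT mice at an adjusted p under 0.05. Of these 16 rose (2.88%) and 7 fell (1.26%) in the injured DYT1KI cerebellum. Those that rose included miR-26a-5p, one of the 5 most abundant miRNAs of these libraries, the cerebellum-enriched miR-206-3p, the neuron-enriched miR-129-5p, and miR-323-5p, miR-543-5p and miR-485-5p of the imprinted Dlk1-Dio3 region. Those that fell included the red-cell miR-144-3p, the immune-cell miR-146a-5p and miR-142a-5p, miR-384-5p and the cell-cycle-linked miR-15a-5p. Most changes were small: 16 of the 23 had a log2 change under 1 in size. All calls used edgeR's quasi-likelihood test with Benjamini-Hochberg adjustment. At an unadjusted p under 0.05, 164 miRNAs (29.5%) differed, and the median log2 change of all 555 was 0.03. The number of calls was unstable: it was 0 without WT naive replicate 1, 2 or 3 or without DYT1KI crush replicate 5, and between 2 and 50 without each of the other libraries. The balance of directions changed with the settings too. DESeq2 called 42 higher and 42 lower, upper-quartile scaling 6 higher and 5 lower, a minimum count of 50 gave 12 higher and 20 lower, and replicates 1 to 3 alone gave 35 higher and 73 lower. In each of these fits those of the 23 that were tested kept their direction. Of the 23, 8 that rose and 3 that fell had libraries that did not overlap between the groups, beside 8 (1.44%) and 6 (1.08%) of all miRNAs tested.

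The mature sequences of 15 of the called miRNAs are shown because they carry the composition and the seeds that the results below turn on. RefSeq (GRCm38.p6) held a sequence for 18 of the 23 and for 473 of the 555 tested. Seeds are in capitals, and each sequence reads 5′ to 3′. The following rose in the injured DYT1KI cerebellum:
miR-323-5p: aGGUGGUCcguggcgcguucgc
miR-139-3p: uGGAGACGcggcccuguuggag
miR-125a-3p: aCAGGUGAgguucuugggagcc
miR-129-5p: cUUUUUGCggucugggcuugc
miR-676-3p: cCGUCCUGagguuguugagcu
miR-543-5p: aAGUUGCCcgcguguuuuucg
miR-30a-3p: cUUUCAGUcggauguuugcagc
miR-206-3p: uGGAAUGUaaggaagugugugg
miR-26a-5p: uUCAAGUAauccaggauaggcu

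These fell:
miR-144-3p: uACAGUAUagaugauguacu
miR-142a-5p: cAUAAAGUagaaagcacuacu
miR-384-5p: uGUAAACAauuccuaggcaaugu
miR-15a-5p: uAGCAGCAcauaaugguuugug
miR-146a-5p: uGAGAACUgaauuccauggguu
miR-344-3p: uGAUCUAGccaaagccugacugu

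For comparison of seeds, 2 miRNAs that did not pass the test are added. The first carries the seed of miR-384-5p, and the second that of miR-146a-5p:
miR-30a-5p: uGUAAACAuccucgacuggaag
miR-146b-5p: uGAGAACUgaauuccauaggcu

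The 18 called miRNAs with a sequence had 18 different seeds, and among the 473 tested miRNAs with a sequence 5 of them shared theirs with another. Seeds of the tested miRNAs without a sequence were not compared. The sequences that rose were richer in G and C than those that fell. GC content had a median of 54.8% (38.1% to 72.7%) over the 12 that rose and 37.8% (30% to 47.8%) over the 6 that fell, against 47.8% over the 473 tested with a sequence. The same tilt ran through the whole table, and its values by library are given further below.

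The highest levels among the called miRNAs belonged to miR-26a-5p. This miRNA restrains cell-cycle genes and is abundant in neurons, and it comes from introns of Ctdspl (chr9:119031811-119031832, plus strand, GRCm38) and Ctdsp2 (chr10:126995543-126995564, plus strand), so its reads cannot be split between these loci. Levels are counts per 1000000 of the TMM-scaled library total (CPM). miR-26a-5p ran from 85500 to 121000 CPM (median 93000) in DYT1KI crush mice and from 69400 to 74400 CPM (median 70400) in WT naive mice. On this scale all 6 injured DYT1KI libraries lay above all 6 naive WT libraries, and the WT naive values were tightly grouped. The TMM factors themselves were lower in DYT1KI crush (0.7045 to 1.073) than in WT naive libraries (1.047 to 1.259), and a lower factor raises every CPM of its library. Whether the groups separate without the scaling was not tested. miR-26a-5p rose by 0.47 ± 0.12 (log2 change ± SE, adjusted p = 0.0357 by edgeR's quasi-likelihood test). Its seed partner miR-26b-5p, which did not pass, differed by 0.28 ± 0.16 on the same scale (adjusted p = 0.229).

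miR-206-3p is best known from skeletal muscle but marks the hindbrain within the brain. Its gene lies at chr1:20679055-20679076 (plus strand), in an exon of the long noncoding RNA Gm28653. It had 2080 to 4540 CPM (median 3380) in DYT1KI crush mice and 1450 to 2220 CPM (median 1980) in WT naive mice. The groups overlapped, but every injured DYT1KI library exceeded the WT naive mean. It rose by 0.80 ± 0.20 (adjusted p = 0.0357). The other 2 muscle miRNAs tested had values below 0 and did not pass. In the tissue check miR-206-3p had a median of 2790 unscaled CPM in injured DYT1KI cerebellum, against 21 in cortex and 254 in striatum of the same group. miR-183-5p, of the hindbrain-enriched miR-183 cluster, had medians of 47.5, 2.6 and 2.56 unscaled CPM in the same 3 tissues, so markers of the labelled tissue were present. DYT1KI crush replicate 6 stood apart in them. It had the lowest level of its group in 5 of the 7 cerebellum markers, among them miR-183-5p (14 unscaled CPM, with the next library at 24.6 and WT naive libraries at 38 to 43.1) and miR-10a-5p (36.5, with the next at 196), below all WT naive libraries in both. Its miR-206-3p was the highest of the group, at 3670 unscaled CPM. On the second principal component it lay at -14.28, with the other 22 cerebellum libraries between -6.69 and 6.85. Without it 8 miRNAs passed, and the log2 changes of the 22 called miRNAs with a fitted change were 67.3% to 112% of those with it. What it contributes to these changes was not tested further.

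Of the called miRNAs, 3 with a described role in neurons are given next, grouped after their values were seen. miR-129-5p, which in rat neurons represses the potassium channel Kv1.1 and takes part in homeostatic weakening of synapses, comes from chr2:94241419-94241439 (minus strand, an intron of Mir670hg) and chr6:29022624-29022644 (plus strand, an exon of Gm3294). It ran from 1130 to 1740 CPM (median 1500) in DYT1KI crush mice and from 640 to 1120 CPM (median 911) in WT naive mice. The groups did not overlap, with the lowest injured DYT1KI library just above the highest naive WT one, and the log2 change was 0.72 ± 0.18 (adjusted p = 0.0379). miR-485-5p, which in rat hippocampal neurons represses the synaptic vesicle protein SV2A, had 67.3 to 111 CPM (median 74.5) in DYT1KI crush mice and 32.4 to 62.7 CPM (median 51.2) in WT naive mice. These groups did not overlap either, and miR-485-5p rose by 0.72 ± 0.19 (adjusted p = 0.0407). 

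miR-384-5p has been described together with miR-26a in the rodent hippocampus, where both restrain long-term potentiation through the kinase RSK3. It is intergenic on chromosome X (chrX:105344332-105344354, minus strand). It ran from 136 to 191 CPM (median 152) in DYT1KI crush mice and from 202 to 313 CPM (median 229) in WT naive mice. All injured DYT1KI libraries were below all naive WT ones, and it fell by 0.64 on the log2 scale (SE 0.139, adjusted p = 0.0307). miR-26a-5p and miR-384-5p thus moved in opposite directions. The other tested miRNAs found to carry the seed of miR-384-5p did not pass. miR-30a-5p differed by 0.06 ± 0.14 on the log2 scale, at a mean of 10100 CPM in DYT1KI crush and 9710 CPM in WT naive mice, and miR-30e-5p by 0.07 ± 0.14. miR-30c-5p, at a mean of 190 CPM in DYT1KI crush and 359 CPM in WT naive mice, had -0.92 ± 0.48 (adjusted p = 0.202).

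Of the imprinted Dlk1-Dio3 clusters, which are expressed from the maternal chromosome 12 and serve in neuronal plasticity, 67 mature miRNAs were tested. Of these 3 rose (4.48%, beside 2.88% of all miRNAs tested), 1 fell (1.49%, beside 1.26%) and 63 did not pass. The share called, 5.97%, was near the 4.14% of all miRNAs tested, and the list median was -0.08 against 0.03 for all miRNAs. The list had 29 members above 0 and 38 below. miR-323-5p (chr12:109712523-109712544, plus strand) had the largest of these changes, with 5.74 to 12 CPM (median 8.91) in DYT1KI crush mice and 2.04 to 4.78 CPM (median 3.9) in WT naive mice. The groups did not overlap. It rose by 1.28 ± 0.29 (adjusted p = 0.0307), while the more abundant miR-323-3p of the same hairpin differed by 0.42 ± 0.20 (log2, adjusted p = 0.168). miR-543-5p (chr12:109717269-109717289, plus strand) ran from 45 to 62.1 CPM in DYT1KI crush and from 37.5 to 42.4 CPM in WT naive mice, without overlap, and rose by 0.44 ± 0.11 (adjusted p = 0.0357). The third that rose was miR-485-5p. In the opposite direction, miR-487b-3p had 34 to 66.7 CPM (median 45) in DYT1KI crush and 54.4 to 165 CPM (median 84.6) in WT naive mice. Its groups overlapped, and it fell by 1.07 on the log2 scale (SE 0.302, adjusted p = 0.0477). In WT naive mice it had 165, 144 and 107 CPM in replicates 1 to 3, and 54.4, 57.5 and 62.2 CPM in replicates 4 to 6.

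Of 8 microglia, leukocyte and inflammation miRNAs, 2 fell with both hits (25%, beside 1.26% of all miRNAs tested), miR-146a-5p and miR-142a-5p. miR-146a-5p, induced by NF-kB and a brake on the adaptors TRAF6 and IRAK1, is intergenic at chr11:43374435-43374456 (minus strand). It ran from 5.6 to 10.8 CPM (median 8.8) in DYT1KI crush mice and from 10.9 to 38.5 CPM (median 15.8) in WT naive mice. All injured DYT1KI libraries were below all naive WT ones, although by a small margin at the boundary. It fell by 1.15 on the log2 scale (SE 0.296, adjusted p = 0.0384). In WT naive mice it had 38.5, 22.5 and 19 CPM in replicates 1 to 3, and 12.5, 10.9 and 11.3 CPM in replicates 4 to 6. miR-142a-5p, made in blood-forming lineages and microglia (chr11:87756867-87756887, plus strand, an intron of Mir142hg), had 28 to 42.5 CPM (median 36) in DYT1KI crush and 41.8 to 90.9 CPM (median 51.4) in WT naive mice. The groups overlapped slightly, and it fell by 0.64 on the log2 scale (SE 0.179, adjusted p = 0.0465).

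The list of microglia, leukocyte and inflammation miRNAs held 0 members that rose. Its median was -0.64, against 0.03 over all miRNAs, and 7 of the 8 values were below 0 (6 of 8 with the slope on GC content as a term). Among those that did not pass, miR-146b-5p, which carries the seed of miR-146a-5p, stood at -0.65 ± 0.20 (log2 change, adjusted p = 0.0684), and miR-223-3p of granulocytes had -0.89 ± 0.31 (adjusted p = 0.0744). miR-142a-3p had -0.95 ± 0.36 (adjusted p = 0.0876) and miR-21a-5p, which rises in many injured tissues, -0.38 ± 0.16 (adjusted p = 0.107). miR-155-5p, a marker of inflammatory activation, was the one value above 0, at 0.39 ± 0.23 (adjusted p = 0.27). The summed level of the list ran from 654 to 1070 CPM (median 923) in DYT1KI crush and from 1150 to 1380 CPM (median 1180) in WT naive mice, without overlap. miR-21a-5p, which did not pass, weighs most in this sum. It reached 19132 counts in a library, and no other member more than 2605. In bulk tissue, fewer cells of a type and less of a miRNA per cell cannot be told apart.

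The red-cell miRNAs went both ways. miR-144-3p, from an erythroid cluster that also holds miR-451a, lies at chr11:78073047-78073066 (plus strand, intergenic). It had 3.37 to 8.21 CPM (median 4.36) in DYT1KI crush mice and 3.64 to 65.5 CPM (median 20.3) in WT naive mice. One naive WT library was as low as the injured DYT1KI libraries and another, replicate 2, stood far above the rest. It fell by 2.40 on the log2 scale (SE 0.510, adjusted p = 0.0307). miR-486a-3p/486b-3p, from red cells and muscle and counted as one feature, had 6.25 to 19.9 CPM (median 6.88) in DYT1KI crush and 2.29 to 5.93 CPM (median 4.85) in WT naive mice, without overlap. It rose by 1.07 ± 0.28 (adjusted p = 0.0384). Replicates 6 and 5 of DYT1KI crush had 19.9 and 11.1 CPM, and the other libraries of that group 6.25 to 6.96 CPM. miR-451a, the defining red-cell miRNA, was near 0 in both groups, at 0 to 1.95 CPM (median 0.378) in DYT1KI crush and 0 to 12.7 CPM (median 1.37) in WT naive mice. Of the 4 blood miRNAs tested 1 rose (25%, beside 2.88% of all miRNAs tested) and 1 fell (25%, beside 1.26%). The blood list summed to a median of 101 CPM in DYT1KI crush and 91.8 CPM in WT naive mice, with overlap. miR-486a-5p/486b-5p, which did not pass (0.63 ± 0.23, adjusted p = 0.0837), weighs most in this sum. It reached 2568 counts in a library, and no other member more than 964. What residual blood contributes to these changes was not tested.

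Of the other miRNAs that fell, miR-15a-5p, known in human cells for repressing the survival factor BCL2, lies in an intron of Dleu2 (chr14:61632075-61632096, minus strand). It ran from 213 to 398 CPM (median 278) in DYT1KI crush and from 397 to 813 CPM (median 439) in WT naive mice. The groups overlapped slightly, and it fell by 0.90 on the log2 scale (SE 0.231, adjusted p = 0.0384). Its seed was shared with 5 tested miRNAs that have a sequence, none of which passed. Their log2 changes ran from -0.46 ± 0.27 for miR-15b-5p to 0.36 ± 0.15 for the far more abundant miR-16-5p, which had a mean of 47500 CPM in DYT1KI crush and 37000 CPM in WT naive mice. miR-344-3p, from introns of the noncoding RNAs A230057D06Rik and A330076H08Rik on chromosome 7, had 2.36 to 5.08 CPM in DYT1KI crush and 5.12 to 17.9 CPM in WT naive mice. These did not overlap, and it fell by 1.42 on the log2 scale (SE 0.363, adjusted p = 0.0384). WT naive replicates 1 to 3 had 17.9, 14.6 and 9.72 CPM, while replicates 4 to 6 had 5.64, 5.12 and 5.2 CPM, near the DYT1KI crush libraries.

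**Figure D1:**
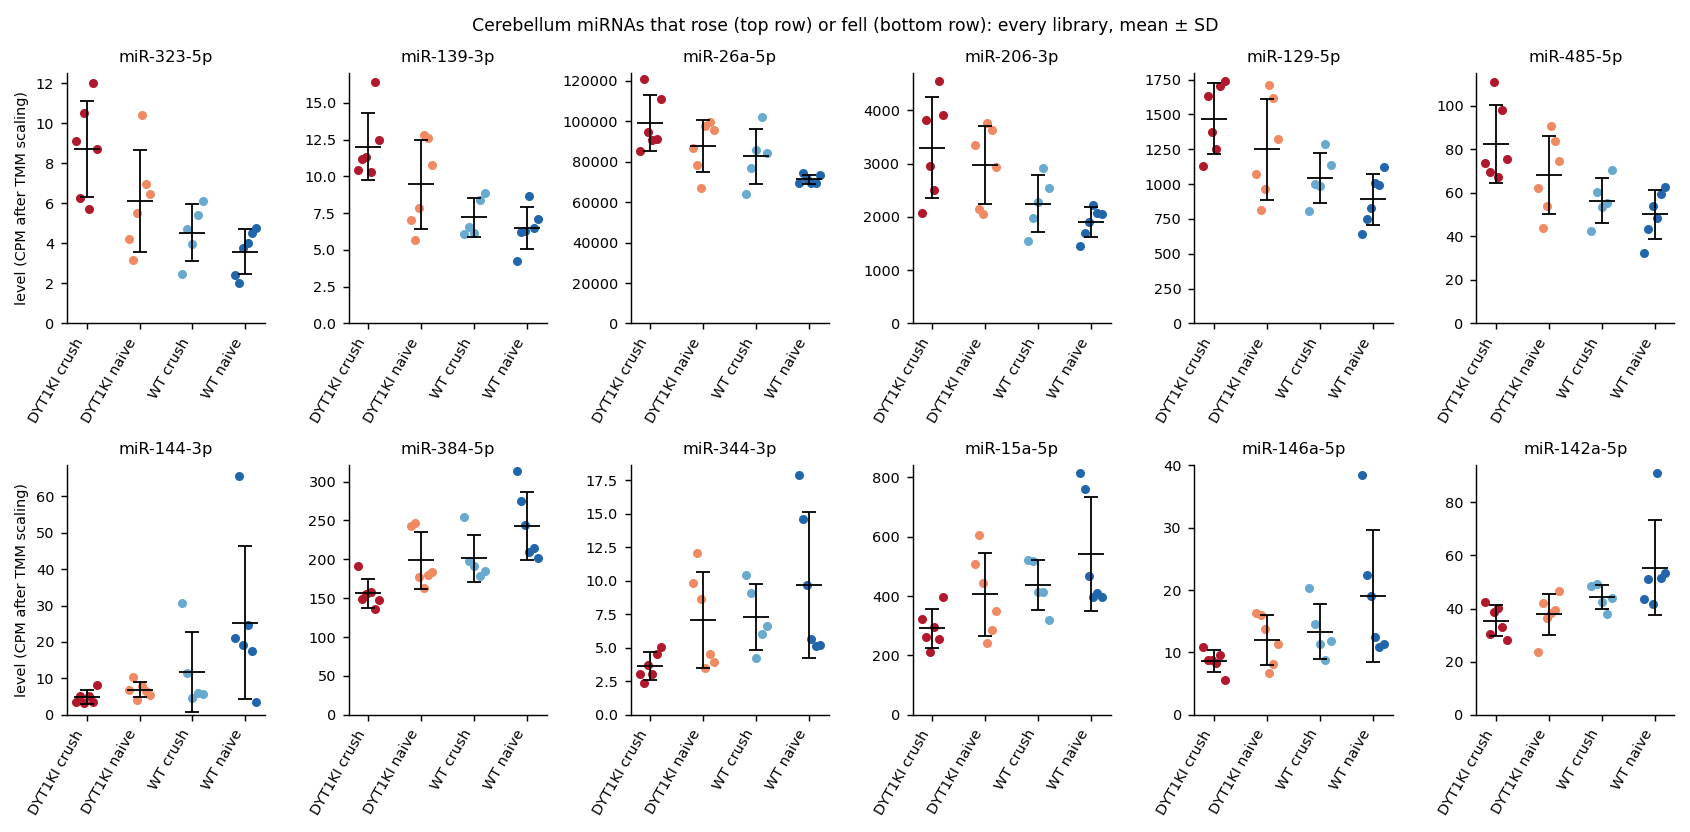
Levels of 6 miRNAs that rose (top row) and 6 that fell (bottom row) in every cerebellum library, in CPM after TMM scaling. Points are libraries, bars are mean ± SD, and groups run from DYT1KI crush on the left to WT naive on the right (6 libraries each, 5 for WT crush). For miR-144-3p the WT naive group spreads from 3.64 to 65.5 CPM, while the DYT1KI crush libraries stay at 8.21 CPM or below.

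Several of the remaining miRNAs that rose are arms that are usually the minor product of their hairpin. miR-139-3p, whose hairpin lies in an intron of the phosphodiesterase gene Pde2a (chr7:101475418-101475439, plus strand), had 10.3 to 16.4 CPM (median 11.2) in DYT1KI crush and 4.27 to 8.69 CPM (median 6.4) in WT naive mice, without overlap. It rose by 0.88 ± 0.21 (adjusted p = 0.0357), while the major arm miR-139-5p, with 428 to 732 CPM in DYT1KI crush and 374 to 480 CPM in WT naive mice, did not pass (0.38 ± 0.14, adjusted p = 0.0811). miR-125a-3p, from an intron of Spaca6 (chr17:17830855-17830876, plus strand), rose by 0.67 ± 0.18 (adjusted p = 0.043), and its partner miR-125a-5p had -0.20 ± 0.27 (adjusted p = 0.646). miR-676-3p, the major arm of a hairpin in an intron of Eda on chromosome X, rose by 0.65 ± 0.19 (adjusted p = 0.0493). miR-30a-3p rose by 0.55 ± 0.16 (adjusted p = 0.0493), while miR-30a-5p did not pass. miR-676-3p, miR-30a-3p, miR-7689-3p (0.43 ± 0.12) and miR-6946-5p (0.99 ± 0.28) are past the 12 with the smallest p that the naming rule takes, and are named after their values were seen.

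These arms were followed up with the 5p over 3p ratio of each hairpin, a test added after the data were seen. Over all hairpins with both arms tested, 0 had a ratio that differed at an adjusted p under 0.05 by limma, and 32 (24.1%) did at an unadjusted p under 0.05. The smallest p belonged to miR-30a. Its log2 ratio averaged 2.08 ± 0.21 in DYT1KI crush and 2.57 ± 0.11 in WT naive libraries (SD, n = 6 each), a difference of -0.50 ± 0.12 (SE, adjusted p = 0.0782), with no overlap. miR-30e followed with -0.51 ± 0.14 (adjusted p = 0.0824). The differences were -0.53 ± 0.23 for miR-139, -0.82 ± 0.37 for miR-125a and -0.33 ± 0.29 for miR-676. Their adjusted p-values were 0.176, 0.182 and 0.538, each with overlap of the groups. For miR-323 the 5p share was the one that was higher, with a log2 ratio of -3.82 ± 0.54 in DYT1KI crush and -4.70 ± 0.38 in WT naive libraries (SD; adjusted p = 0.121).

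The remaining miRNAs that rose were scarce. miR-7668-3p was at 0 in all 6 WT naive and all 5 WT crush libraries, and had 11 to 22 counts in 5 of the 6 DYT1KI crush libraries and 13 and 15 in 2 of the 6 DYT1KI naive ones. Against a floor of 3 counts per library, its mean of 1.65 ± 1.08 CPM in DYT1KI crush mice (SD, n = 6) was at least 5.29-fold higher than in WT naive mice. It could pass the filter on low counts only through DYT1KI libraries, where it was high. Its adjusted p of 0.0465 by edgeR's quasi-likelihood test is therefore no independent support for the rise. Its position, chr7:29906546-29906567 (plus strand), lies opposite a UTR exon of Zfp27. miR-12191-3p rose by 0.64 ± 0.18 and miR-7666-3p by 0.77 ± 0.21 (both with an adjusted p of 0.0465), at medians of 5.29 and 2.99 CPM in DYT1KI crush and of 3.07 and 2.09 CPM in WT naive mice.

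**Figure D2:**
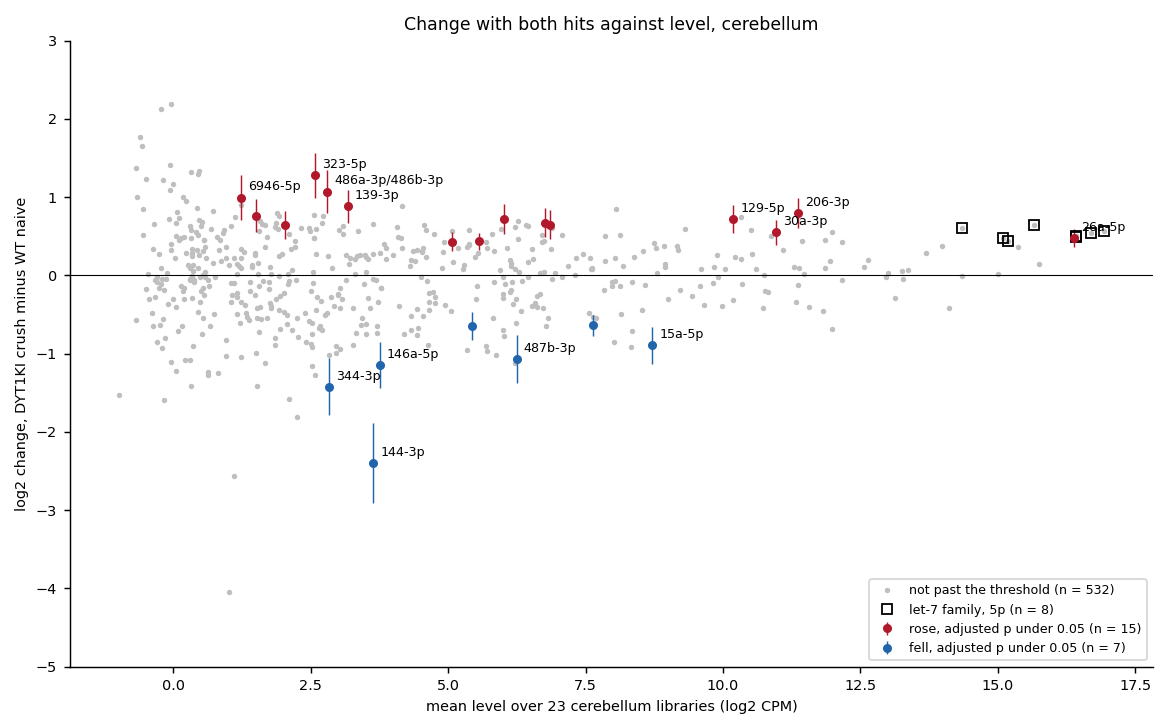
Log2 change between DYT1KI crush and WT naive cerebellum (vertical axis) against the mean level over 23 libraries (horizontal axis, log2 CPM) for the tested miRNAs. Red points rose and blue points fell at an adjusted p under 0.05 (bars are SE), grey points did not pass, and open squares are let-7 members. The let-7 squares lie together above 0 at the highest levels, while miR-7668-3p and 4 uncalled miRNAs beyond -5 or 3 are not drawn.

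The let-7 family, which promotes differentiation and makes up much of the brain's miRNA, had 0 of 9 members past the threshold. Among all miRNAs tested 4.14% passed. Yet all 9 values were above 0 (median 0.50, range 0.44 to 0.64). With the share of the top 10 miRNAs as a term, 7 of the 9 were below 0 (median -0.02). That share counts the most abundant let-7 members themselves, so this fit cannot separate a change of let-7 from a change of the share. let-7c-5p ran from 103000 to 222000 CPM (median 139000) in DYT1KI crush and from 81000 to 115000 CPM (median 106000) in WT naive mice, with overlap and a log2 change of 0.57 ± 0.19 (adjusted p = 0.0684). let-7a-5p, let-7f-5p and let-7g-5p had 0.54 ± 0.18, 0.49 ± 0.19 and 0.50 ± 0.17. let-7b-5p had 0.64 ± 0.21 and let-7i-5p 0.48 ± 0.15. The summed level of the family was 467000 to 964000 CPM (median 581000) in DYT1KI crush and 358000 to 517000 CPM (median 474000) in WT naive mice. These sums are TMM-scaled and are not shares of a library's counts. The TMM factors were lower in DYT1KI crush (median 0.94) than in WT naive libraries (median 1.119), which widens the gap between the sums. Of the miR-29 family, which silences collagens and DNA methyltransferases, 0 of 3 passed and all 3 values were below 0. miR-29c-3p had -0.68 ± 0.22 (adjusted p = 0.0684).

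Of the oligodendrocyte list 0 of 4 passed, beside 4.14% of all miRNAs tested. All 4 values were below 0, or 2 of 4 with the library slope on GC content described below as a term. miR-338-3p, which drives oligodendrocyte maturation, ran from 2180 to 3250 CPM in DYT1KI crush and from 3050 to 4140 CPM in WT naive mice, with a log2 change of -0.40 ± 0.14 (adjusted p = 0.0811). miR-219a-5p was at 0 in 5 of 6 DYT1KI crush libraries and had 0.694 to 5.49 CPM in the WT naive ones (adjusted p = 0.0684). The neuron-enriched list had 1 of 10 that rose (miR-129-5p), beside 2.88% of all miRNAs tested, and a median of -0.01. In it miR-124-3p had 0.14 ± 0.17, miR-9-5p 0.02 ± 0.12 and miR-153-3p -0.61 ± 0.19 (adjusted p = 0.0684). Of the 7 activity-regulated miRNAs 0 passed. The CREB-induced miR-132-3p had -0.30 ± 0.36 (adjusted p = 0.607) and miR-212-3p -0.70 ± 0.33 (adjusted p = 0.156), with overlapping groups.

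The other lists gave few or no calls, beside 4.14% of all miRNAs tested (2.88% rose and 1.26% fell). In lists this short, 0 or 1 call cannot be told apart from that share. The cerebellum markers had 1 of 7 that rose (miR-206-3p), and the forebrain markers had 0 of 4. Of 11 miRNAs linked to the unfolded protein response, the pathway tied to torsinA's compartment, 0 passed, with 8 values below 0 and a median of -0.30 (3 values below 0 and a median of 0.22 with the slope on GC content as a term). Of 12 linked to peripheral nerve injury 1 fell (miR-146a-5p), with a median of -0.34, or 0.11 with the slope on GC content as a term. The counts were 0 of 5 for the endothelium and vessel wall, 0 of 6 for the choroid plexus and ependyma, 0 of 7 for the Htr2c-hosted, 0 of 4 for the miR-200, 0 of 4 for the Hox, 0 of 8 for the miR-17-92, 0 of 2 for the miR-23/27/24, 0 of 5 for the miR-30 and 0 of 4 for the miR-181 lists. Of the muscle list 1 of 3 rose, which is miR-206-3p again. Just outside the threshold stood miR-544-3p at -1.16 ± 0.34 (adjusted p = 0.052) and miR-149-5p at 0.50 ± 0.15 (adjusted p = 0.0664), named after their values were seen.

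The libraries of the 2 groups differed in composition as well. A slope of log2 CPM on GC content was taken for each library over the 473 miRNAs with a sequence, in log2 units per 10 percentage points of GC. It was 0.0831 to 0.198 (median 0.1185) in DYT1KI crush and -0.269 to 0.0621 (median -0.04795) in WT naive libraries. The groups did not overlap (exact permutation test, two-sided, p = 0.00216, the smallest this design allows). High slopes were not limited to DYT1KI crush. DYT1KI naive libraries had -0.169 to -0.106 in replicates 1 to 3 and 0.121 to 0.174, inside the DYT1KI crush range, in replicates 4 to 6. WT naive libraries had -0.269 to -0.0444 and -0.0515 to 0.0621 in these ranges, and WT crush libraries -0.296 to -0.0169 and -0.0103 to 0.0737. Over miRNAs, Spearman's rho of the log2 change with GC content was 0.363 (n = 473 miRNAs that share 12 libraries, given as a description). The median log2 change was 0.23 for 222 miRNAs with a GC content of at least 50% and -0.31 for 85 under 40%. With this slope as a term of the fit 1 miRNA passed, none of the 23, and all 23 kept their direction, most at smaller sizes. The log2 changes of the 22 called miRNAs with a fitted change had a median of 54.8% of their size without the term (27.3% to 109%), and 16 of the 22 shrank by more than 1.5 times. miR-146a-5p had -0.35 with the term and miR-487b-3p -0.29. This alternative was added after the data were seen. The slope is taken from the same log2 CPM values, the called miRNAs included, and it separates the 2 groups. Smaller sizes and fewer calls were therefore to be foreseen, and this fit cannot separate a group difference from the slope. The same limit holds for the list values given above with this term.

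The 10 most abundant miRNAs took 68.1% to 78.57% of counts (median 71.31%) in DYT1KI crush and 64.08% to 68.36% (median 67%) in WT naive libraries (exact permutation test, two-sided, p = 0.00649). With this share as a term 2 miRNAs passed, none of the 23, and the sizes had a median of 62.8% of those without it (31.6% to 97.8%). The share counts miR-26a-5p and the most abundant let-7 members themselves, so for them the term is partly their own level. The first principal component of the cerebellum libraries, with 34.2% of the variance, ran from 2.81 to 11.75 in DYT1KI crush and from -16.9 to 3.81 in WT naive libraries (exact permutation test, two-sided, p = 0.0152). Its 3 lowest WT naive libraries were replicates 1 to 3. Total counts were alike, at 8199033 to 11584317 in DYT1KI crush and 9188959 to 12582875 in WT naive libraries. The TMM factors were not, with medians of 0.94 in DYT1KI crush and 1.119 in WT naive libraries (exact permutation test, two-sided, p = 0.00649). Within replicates 1 to 3 the 2 hits gave 108 calls (35 higher, 73 lower), and within replicates 4 to 6 they gave 0 by edgeR's quasi-likelihood test, with 78 at an unadjusted p under 0.05. In both subsets all 23 kept their direction, with a median size of 106% of that over all replicates within 1 to 3 and of 70.3% within 4 to 6.

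**Figure D3:**
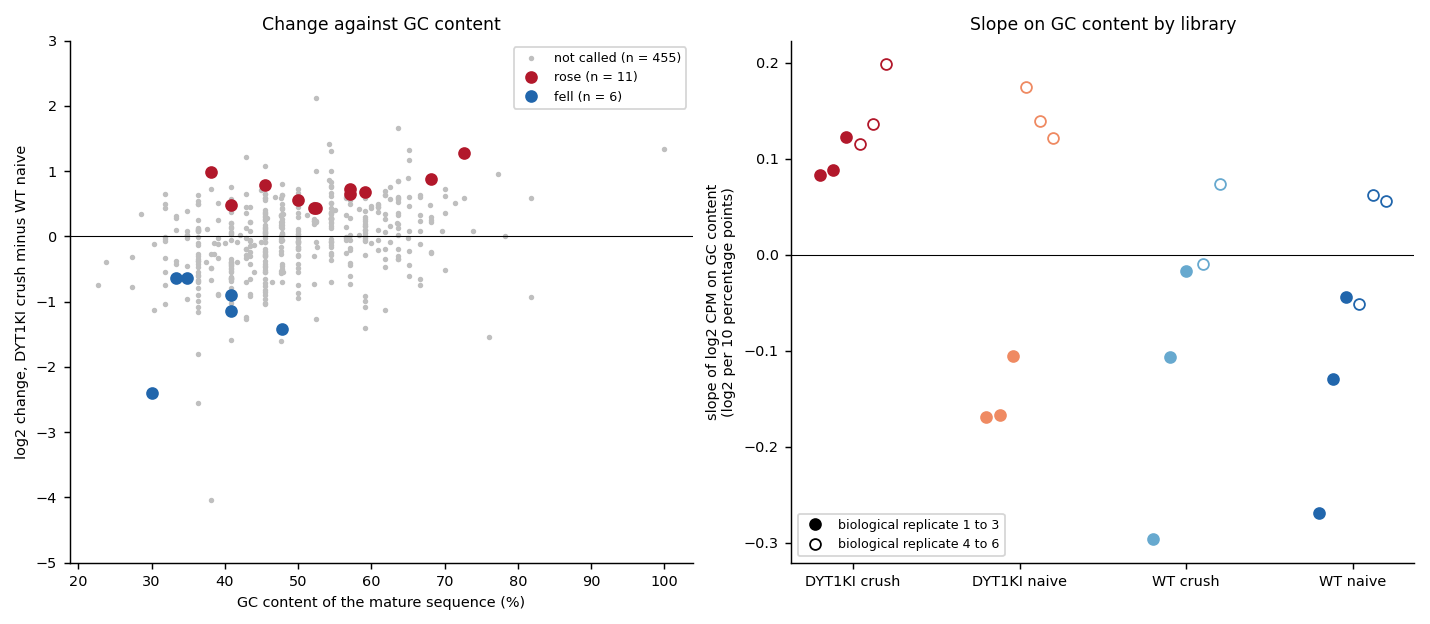
Left, log2 change between DYT1KI crush and WT naive cerebellum against the GC content of the mature sequence (%), for the tested miRNAs that have one (miR-7668-3p and values beyond -5 or 3 are not drawn). Right, the slope of log2 CPM on GC content in each library (log2 per 10 percentage points), with replicates 1 to 3 filled and 4 to 6 open. The 6 DYT1KI crush libraries sit between 0.0831 and 0.198, above all WT naive libraries. DYT1KI naive replicates 4 to 6 lie in the same range, at 0.121 to 0.174.

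The 2-hit difference is the sum of a genotype step and an injury step, and no miRNA passed in either step alone. By edgeR's quasi-likelihood test, DYT1KI naive against WT naive mice gave 0 calls (65 at an unadjusted p under 0.05, 11.7%, and 11 calls with DESeq2). DYT1KI crush against DYT1KI naive mice gave 0 (41 unadjusted, 7.39%), WT crush against WT naive mice 0 (21 unadjusted, 3.78%) and DYT1KI crush against WT crush mice 0 (122 unadjusted, 22%), with 0 by DESeq2 in each. These comparisons share libraries with one another and with the 2-hit comparison, so their values are only set side by side. For miR-323-5p the log2 difference from WT naive was 1.28 in DYT1KI crush, 0.77 in DYT1KI naive and 0.34 in WT crush mice. For miR-206-3p these values were 0.80, 0.65 and 0.24, and for miR-384-5p -0.64, -0.29 and -0.27. For miR-144-3p they were -2.40, -1.87 and -1.10, and for miR-146a-5p -1.15, -0.67 and -0.52.

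**Figure D4:**
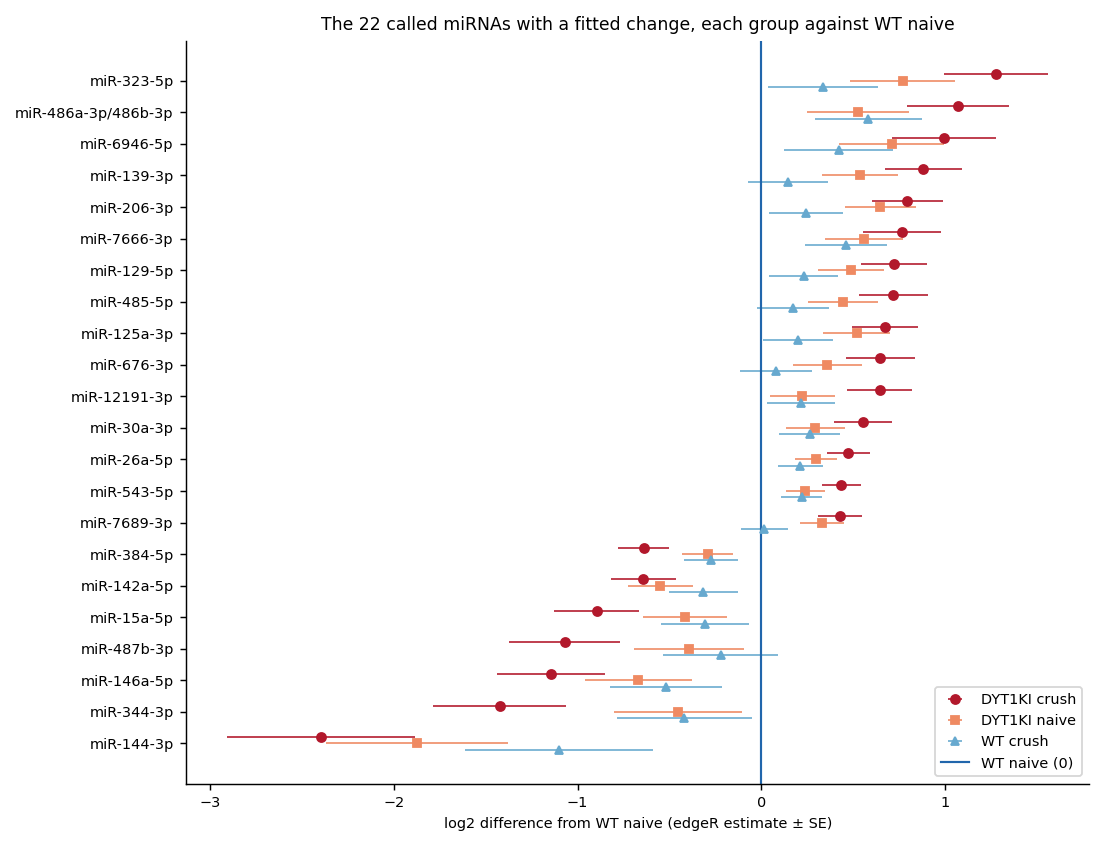
Log2 difference from WT naive cerebellum (edgeR estimate ± SE, horizontal axis) of DYT1KI crush, DYT1KI naive and WT crush mice, for 22 called miRNAs (rows; miR-7668-3p, at 0 in WT naive, is not drawn). WT naive is the line at 0, and all contrasts share its 6 libraries. For miR-323-5p the points stand at 1.28, 0.77 and 0.34.

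Whether both hits together differed from the sum of single hits was tested as an interaction, the injury effect in DYT1KI minus that in WT mice. By edgeR's quasi-likelihood test 0 of 555 miRNAs passed, 14 (2.52%) had an unadjusted p under 0.05, and DESeq2 gave 0. The smallest p-values belonged to the Htr2c-hosted miR-1912-3p (1.11 ± 0.42) and miR-1298-5p (0.87 ± 0.34), from introns of a serotonin receptor gene, and to miR-664-3p (-1.96 ± 0.77), each with an adjusted p of 0.921. Of the 22 called miRNAs with a fitted change, 20 had an interaction smaller in size than its SE, and 0 had an unadjusted p under 0.05. The other 2 were miR-344-3p (-0.55 ± 0.51) and miR-487b-3p (-0.46 ± 0.43). The interaction was -0.04 ± 0.17 for miR-26a-5p, 0.00 ± 0.26 for miR-129-5p, -0.08 ± 0.20 for miR-384-5p and 0.58 ± 0.71 for miR-144-3p.

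In cortex and striatum of the same mice, injured DYT1KI against naive WT gave 0 calls of 530 and 0 of 547 by edgeR's quasi-likelihood test. At an unadjusted p under 0.05 there were 166 (31.3%) and 49 (8.96%), and DESeq2 called 57 in cortex and 0 in striatum. Of the 22 called cerebellum miRNAs tested in cortex, 22 had the same direction there, beside 81.5% of all 493 miRNAs tested in both tissues. In striatum it was 19 of 23, beside 66.5% of 498. The tissues come from the same mice, and Spearman's rho of the change with GC content was 0.312 in cortex and 0.32 in striatum. miR-206-3p had 1.03 ± 0.30 in cortex and -0.03 ± 0.17 in striatum. The cortex value turned on DYT1KI crush replicate 1, at 96.2 unscaled CPM, with the other 5 libraries at 17.7 to 23.5 and WT naive cortex at 13.1 to 19.8. Without that library it was 0.47 ± 0.16. The same cortex library also had the highest miR-187-3p of its group, at 845 unscaled CPM, with the next at 205. In striatum of DYT1KI crush mice miR-187-3p ran from 4750 to 6580 unscaled CPM. Why this library differs was not tested. miR-323-5p had log2 changes of 1.22 ± 0.41 in cortex and 0.35 ± 0.23 in striatum, and miR-146a-5p of -0.79 ± 0.30 and -0.34 ± 0.12. miR-26a-5p had 0.14 ± 0.11 in cortex and -0.13 ± 0.09 in striatum.

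The difference in the 2-hit effect between tissues was tested with limma over 629 miRNAs, and 0 passed for cerebellum minus cortex (28 at an unadjusted p under 0.05, 4.45%) and 0 for cerebellum minus striatum (76, 12.1%). The smallest p-values against cortex were those of miR-547-3p (2.50 ± 0.71), miR-340-5p (-0.53 ± 0.16) and miR-449a-5p (-0.77 ± 0.26), with adjusted p-values of 0.386, 0.386 and 0.657. Against striatum they were those of miR-127-3p (-0.34 ± 0.10), miR-15a-5p (-0.83 ± 0.26) and miR-218-2-3p (-2.27 ± 0.72), each with an adjusted p of 0.236. The calls in cerebellum were therefore not shown to be particular to it.

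**Figure D5:**
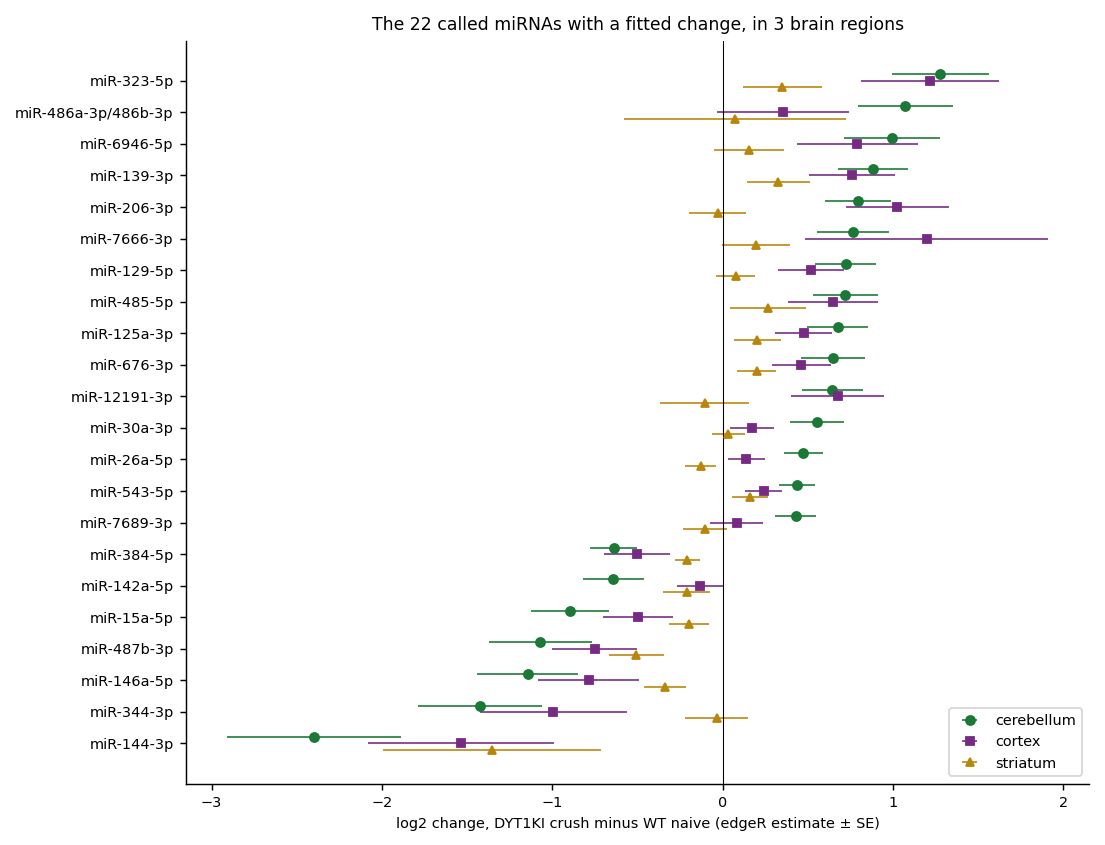
Log2 change between DYT1KI crush and WT naive mice (edgeR estimate ± SE, horizontal axis) in cerebellum, cortex and striatum, for the 22 called miRNAs with a fitted change (rows). Cerebellum and cortex points lie on the same side of 0 in every row, and in striatum several lie near 0, among them miR-206-3p at -0.03.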

How the data were processed

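The members and lists were chosen with earlier results of these data known. Libraries were made from total RNA with a QIAseq miRNA kit after miRNeasy extraction, per the labels' protocols. The submitters' processing notes name featureCounts 1.6.4 and R 4.1.0 without a role. Aligner, genome build, annotation and any use of molecular identifiers: not given in the sources used here. Per the file headers, the authors deposited raw counts of 1927 mature miRNAs per library, of which 921 had a count in cerebellum, and these counts were the start of every test. Columns not used in the results are a signal of counts divided by size factors, the authors' log2 fold changes, and their p-values, each the authors' own per the file headers.

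In R 4.3.3, edgeR 4.0.16 fitted the 4 cerebellum groups together (TMM, filterByExpr with minimum count 10 and total 15, robust quasi-likelihood test). Adjustment was by Benjamini-Hochberg over 555 miRNAs, and an adjusted p under 0.05 was a call. limma 3.58.1 tested tissue differences (voom, with the correlation of 0.095 between tissues of a mouse) and arm ratios (0.5 counts added). DESeq2 1.42.0 was an alternative. Total counts per cerebellum library were 8199033 to 12582875. A floor of 3 counts was at most 0.312 CPM in WT naive libraries, and it covers counting error only. Nothing in the labels names a shared batch. Replicates are separate numbered mice. Same-numbered libraries of the 2 groups did not deviate together (correlations -0.227 to 0.171). No pair of libraries agreed within sampling noise. On simulated cerebellum data (539 miRNAs) 63.9% of 2-fold and 33% of 1.5-fold changes were recovered, and 1 of 345 unchanged miRNAs was called. The simulated miRNAs varied independently, without the slope on GC content or the shift in composition seen here. These rates therefore do not cover false calls under such structure. GC content and sequences came from RefSeq and host genes from GENCODE M21.

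miRNAs are named by rule: the 12 with the smallest p per direction, up to 3 per list, the 3 smallest p of the interaction and of each tissue difference, the 5 most abundant, and a fixed set of known brain and injury miRNAs. Of that set, miR-24-3p is described among the closer looks.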

Additional observations from a re-analysis of the deposited data

Results flagged for a closer look

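Of 56 groups of 6 libraries examined, 5 held a value far from the other 5, and chance gives about 1 in 20 such groups. miR-144-3p was at 65.5 CPM in WT naive replicate 2, against 24.7 CPM in the next library. miR-142a-5p was at 90.9 CPM in WT naive replicate 4, against 53.4 CPM in the next. miR-139-3p reached 16.4 CPM in DYT1KI crush replicate 5, against 12.5 CPM in the next, and miR-486a-3p/486b-3p reached 19.9 CPM in DYT1KI crush replicate 6, against 11.1 CPM. The total count of that replicate 6, 8199033, was the lowest of its group, with the next at 11017712.

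miR-24-3p, which is abundant in most tissues, was at 0 in all 12 libraries of DYT1KI crush and WT naive mice. Outside these it had 78452 counts in WT crush replicate 1 and 69536 counts in DYT1KI naive replicate 1, and 0 in the other 9. The cause was not tested. Without both libraries, an alternative added after the data were seen, the 2 hits gave 59 calls, which held all 23.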

How the results depend on the processing

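The count of 23 calls with both hits in cerebellum moved widely, while the 23 kept their direction in each alternative that tested them. Each lost its call in 7 to 18 alternatives. Over 22 of them the median size was 62.8% of the main one with the top 10 share as a term, 54.8% with the slope on GC content and 70.3% within replicates 4 to 6, and 89.2% to 114% under each other alternative run. DESeq2 gave 84 calls (42 higher, 42 lower), limma voom 3, upper-quartile scaling 11 (6 higher, 5 lower), no filter on low counts 3, a minimum count of 50 gave 32 (12 higher, 20 lower), and a fit of only the 2 groups 10 (5 higher, 5 lower). RLE size factors gave 17. Replicates 1 to 3 against 4 to 6 as a term gave 100, the animal number (under 100 or above) as a term 169, replicates 1 to 3 alone 108 and replicates 4 to 6 alone 0. Without the 2 libraries that hold miR-24-3p it was 59. The share of the top 10 miRNAs as a term gave 2 and the slope on GC content 1. Leaving out one library gave 0 to 50. It was 0 without WT naive replicate 1, 2 or 3 or DYT1KI crush replicate 5, and 11 without WT naive replicate 4. Without DYT1KI crush replicates 1, 2, 3, 4 and 6 it was 50, 2, 9, 15 and 8. The replicate block gave 108, but only 2 of 6 same-numbered pairs correlated over 0.1 and 1 of 6 libraries correlated best with its own number, so the libraries share only a number. For DYT1KI naive against WT naive mice, DESeq2 gave 11 calls and leaving out one library 0 to 1. In cortex, DESeq2 gave 57 calls, the replicate block 182, the replicate term 191 and leaving out one library 0 to 67 (67 without DYT1KI crush replicate 3). For cerebellum minus striatum the replicate term gave 6 and leaving out one library 0 to 1. The interaction, the other single steps, the striatum and cerebellum minus cortex stayed at 0 in each alternative run. Causes of these shifts were not tested.

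Signs turned only among miRNAs that had not passed. miR-9-5p, near 0, had -0.0122 with DESeq2 and with RLE size factors, -6.71e-06 with limma voom, -0.014 without a filter, -0.051 at a minimum count of 50 (where miR-30a-5p had -0.0061) and -0.00853 with only the 2 groups. Leaving out one library, its values ran from -0.066 to 0.087, those of miR-30a-5p from -0.041 to 0.10 and those of miR-30e-5p from -0.020 to 0.12. Within replicates 1 to 3 it had -0.17 and miR-124-3p -0.15. Within replicates 4 to 6 miR-26b-5p had -0.13, miR-30a-5p -0.17, miR-30e-5p -0.23, miR-30c-5p 0.21, miR-155-5p -0.085, miR-125a-5p 0.40 and miR-132-3p 0.42. With the top 10 share as a term miR-26b-5p had -0.10, miR-155-5p -0.27, miR-15b-5p 0.21, miR-16-5p -0.053, miR-125a-5p 0.21, let-7a-5p -0.062, let-7c-5p -0.024, let-7d-5p -0.0096, let-7f-5p -0.13 and let-7g-5p -0.022. With the slope on GC content miR-30a-5p had -0.15, miR-30e-5p -0.15, miR-30c-5p 0.47, miR-15b-5p 0.13, miR-125a-5p 0.34, miR-132-3p 0.55 and miR-212-3p 0.13.

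Depth limits miRNAs near 0.3 CPM, such as miR-451a and miR-219a-5p.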
